A study of Mus musculus with 72 samples.

Results

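The mitochondrial ribosomal protein genes described here are the 77 genes of the array whose symbol is Mrpl or Mrps, a number and at most 1 letter, out of 19938 genes measured. Each gene stood for its probe set with 1 gene symbol in the platform annotation, and for the brightest of them where it had several. By symbol, 48 members belong to the large subunit and 29 to the small subunit. The symbols alone decided which genes are members, although earlier results of these data were known when the family was chosen. Members are called mitochondrial ribosomal genes below, and subunits are taken from the symbols, although the proteins of Mrps18a and Mrps30 sit in the large subunit.

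Mitochondria carry ribosomes of their own, which translate the few messenger RNAs of mitochondrial DNA into core subunits of the respiratory chain. The ribosomal RNAs are made inside mitochondria, but every ribosomal protein is encoded in the nucleus, made in the cytosol and imported. Some of these proteins have counterparts in bacterial ribosomes and others are found only in mitochondria. In leukaemic cells, mitochondrial translation is known as a process on which respiration and growth depend, and Myc, a transcription factor, is known to raise genes of ribosome and mitochondrial biogenesis.

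The data are 72 Affymetrix Mouse Gene 1.0 ST arrays, hybridised with total RNA of leukaemic mouse bone marrow. The disease is acute promyelocytic leukaemia, in which a fusion of the retinoic acid receptor RARA drives the cells. The question of the design is how gene expression answers to retinoic acid (RA) in leukaemias that differ in their fusion and in their Pml gene. Mice of the transgenic model, all labelled with a WT background, carried either PML/RARA or PLZF/RARA, and PLZF/RARA is known from a form of the disease that responds poorly to RA in patients. In the viral transduction model, PML/RARA was carried in a WT or a pml-/- background. Arrays were taken at 6 h and 12 h. For transgenic PML/RARA there were 8 RA-treated against 4 untreated arrays at either time, and for PLZF/RARA 4 against 2. For the viral model there were 8 against 4 per background at 6 h but only 4 against 2 at 12 h. All 16 groups therefore carry a RARA fusion, and no group is normal marrow. The sources used here do not give the promoter of the transgenes, the dose of RA or whether the arrays of a group are separate mice. The p-values below therefore measure the spread between these arrays, which may be technical.

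The deposited values are log2 signals, the array medians lay between 6.56 and 6.81, and the number of arrays limits the precision. The 7 promyelocyte markers, among them Mpo, Elane, Prtn3 and Ctsg, had a mean log2 signal between 11.21 and 12.33 on every array. The labels name 4 batches. Batch 2 held 2 untreated and 2 RA arrays of transgenic PML/RARA at 6 h and batch 1 all other transgenic arrays. Batch 4 held 2 untreated and 4 RA arrays of each viral background at 6 h and batch 3 all other viral arrays. Model and batch cannot be told apart, so each comparison was made within a model, by limma with a batch term. A gene was counted as called where its Benjamini-Hochberg adjusted p over all 19938 genes was under 0.05, and changes are log2 changes with their standard error (SE).

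Promoters are shown for 4 of the members on which the results below turn. The same stretches of Mrpl33, Mrpl41 and Mrps25, each called in 3 RA effects, are not shown and hold no complete motif match. That of Mrps15, called in 4 RA effects, is not shown either. Mrpl36, Mrps6 and Mrpl52 fell with RA in several leukaemias, and Mrpl58 differed most between the viral backgrounds. Each line gives the 110 bases before the start site of the RefSeq promoter window on build GRCm38.p6. They run 5′ to 3′ on the gene's strand, which is the plus strand in all 4. For Mrpl36 and Mrpl58 this site lies inside the RefSeq gene span, which begins at 73328503 and 115403724. Capitals mark matches to the motifs spelled out after the lines.
Mrpl36, chr13:73330899-73331008: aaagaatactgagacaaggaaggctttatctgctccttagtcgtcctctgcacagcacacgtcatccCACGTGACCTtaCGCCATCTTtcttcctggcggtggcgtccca
Mrps6, chr16:92058226-92058335: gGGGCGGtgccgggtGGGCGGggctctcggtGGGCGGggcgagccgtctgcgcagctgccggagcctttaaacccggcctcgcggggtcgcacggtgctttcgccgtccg
Mrpl52, chr14:54426799-54426908: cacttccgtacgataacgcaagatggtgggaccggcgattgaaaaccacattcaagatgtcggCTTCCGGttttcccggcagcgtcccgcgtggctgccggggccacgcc
Mrpl58, chr11:115403642-115403751: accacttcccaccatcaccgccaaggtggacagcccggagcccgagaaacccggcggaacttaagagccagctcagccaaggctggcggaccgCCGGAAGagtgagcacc

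The motifs searched on both strands were the E-box CACGTG, the ETS-type CCGGAAG, the YY1-type AAGATGGCG, the palindromic NRF1 motif, the GC box GGGCGG and the nuclear receptor core site AGGTCA. In the stretch of Mrpl36, the E-box overlaps a nuclear receptor core site on the other strand, and a YY1-type match on the other strand follows. The stretch of Mrps6 holds 3 GC boxes, and those of Mrpl52 and Mrpl58 hold 1 ETS-type match each. The stretch of Mrps15 holds GC boxes that begin at -61 and -34 from the start. An ETS-type match of Mrpl33 begins at -3 and a further one of Mrpl58 at -2, and both run past the start site. RefSeq promoter windows of 300 bases, from 250 before to 50 after the start, were matched to 68 of the 77 members, and Mrpl19 and Mrpl38 are among the 9 without one. The ETS-type letters were found in the windows of 25 of the 68 members (36.8%), against 13.6% of measured genes and 8.86% of all promoters. The YY1-type letters were found in 8 members (11.8%), against 2.29% of measured genes and 1.4% of all promoters. The E-box was found in 5 members (7.35%), against 9.5% of measured genes and 7.15% of all promoters. The GC box was found in 34 members (50%), against 52.9% of measured genes and 35.7% of all promoters. The nuclear receptor core site was found in 10 members (14.7%), against 16.3% of both measured genes and all promoters. The NRF1 motif was found in 3 members (4.41%), against 1.61% of measured genes and 0.971% of all promoters. These matches describe the letters of the windows and are not evidence of binding.

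In transgenic PML/RARA leukaemia, 13 of the 77 mitochondrial ribosomal genes fell with RA at 6 h and 27 fell at 12 h, and 0 rose at either time. Among all genes tested, 8.54% fell and 5.81% rose at 6 h, and 11.7% fell and 9.88% rose at 12 h. The median change of the members was -0.13 at 6 h and -0.19 at 12 h on the log2 scale, against 0.02 and -0.01 over all genes. The change was below 0 in 69 members at 6 h and 71 at 12 h, against 43% and 53.5% of all genes. The called falls ranged from 1.15-fold, for Mrps15 at 12 h, to 1.68-fold, for Mrpl52 at 12 h. Within batch 1 alone (8 arrays) 5 members fell at 6 h, and within batch 2 alone (4 arrays) 9 fell. Without untreated replicate 3 or 4 of the 6 h group, 7 members fell at 6 h. Without untreated replicate 3 or 4 of the 12 h group, 15 and 17 fell at 12 h.

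The mean log2 signal over the 77 members shows the same arrays one by one. At 6 h the 4 untreated PML/RARA arrays had means of 9.09, 9.09, 9.10 and 9.11, and the 8 RA arrays ran from 8.77 to 8.99. All RA arrays were below all untreated arrays at 6 h. At 12 h the untreated arrays ran from 8.88 to 9.10 and the RA arrays from 8.67 to 8.96, and the groups overlapped. Fewer cells of a type and less RNA per cell cannot be told apart in these bulk samples. Erythroid marker genes moved in the same comparisons. Of 12 listed erythroid markers 6 were measured, and of these 1 rose at 6 h and 4 rose at 12 h, with median changes of 0.65 and 0.61. Their mean log2 signal ran from 8.18 to 9.35 in untreated and 8.68 to 10.19 in RA arrays at 6 h, and from 8.32 to 8.98 and 8.54 to 9.92 at 12 h. Of 11 mature neutrophil markers, 1 rose at 6 h, and 5 rose and 1 fell at 12 h. At 6 h, 1 of 8 monocyte and macrophage markers rose and 1 fell, and of 7 promyelocyte markers 1 rose and 2 fell. The mean of the monocyte and macrophage markers ran from 8.43 to 8.45 in untreated and 8.42 to 8.72 in RA arrays at 6 h. At 12 h it ran from 8.16 to 8.51 and from 8.59 to 8.98, without overlap. The part of these cell types in the member changes was not tested.

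**Figure D1:**
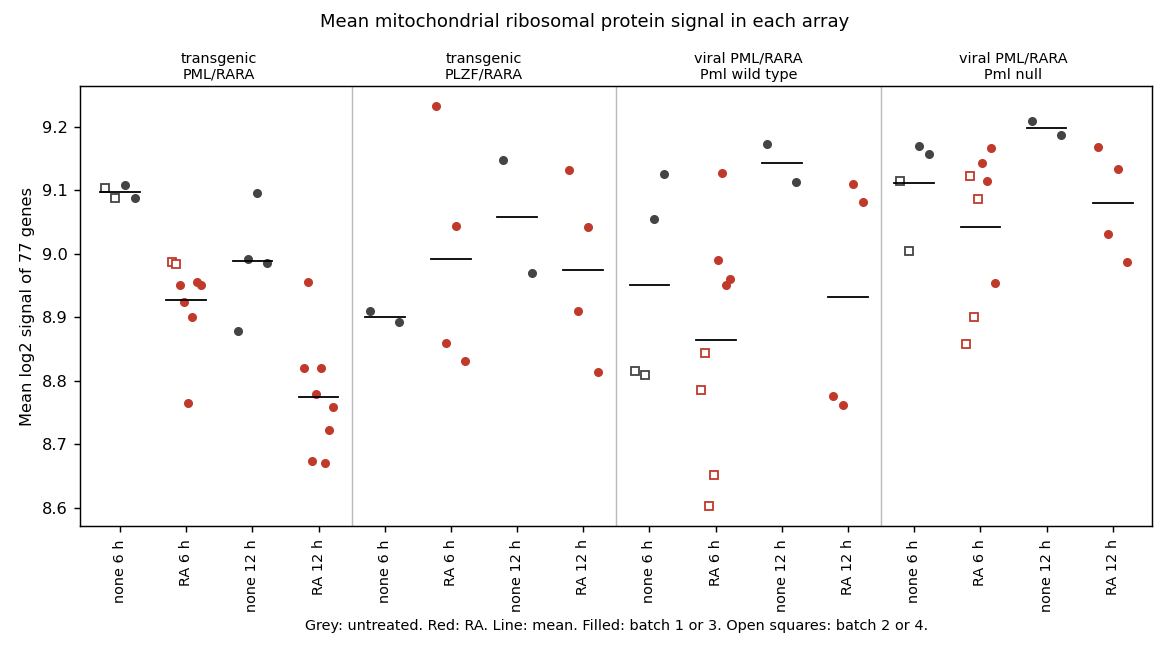
Each point is 1 array and gives the mean log2 signal (vertical axis) of the 77 mitochondrial ribosomal genes, by group of model, fusion or background, treatment and time; the lines are group means, grey is untreated, red is RA, and open squares are batches 2 and 4. The 8 transgenic PML/RARA arrays at 6 h of RA lie between 8.77 and 8.99, below all 4 untreated arrays of that group.

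The largest fall in transgenic PML/RARA was that of Mrpl52, a large subunit protein found only in mitochondria. At 12 h its untreated arrays read 8.55, 8.56, 8.60 and 8.87, and its RA arrays ran from 7.49 over a median of 7.92 to 8.32. All RA arrays were below all untreated arrays, and Mrpl52 fell by 0.75 ± 0.133 (SE), or 1.68-fold (limma, adjusted p = 5.01e-05). At 6 h its change of -0.35 ± 0.138 was not called (limma, adjusted p = 0.0902). Mrpl33, the counterpart of bacterial L33, had untreated values of 9.15, 9.23, 9.26 and 9.40 at 12 h, and its RA values ran from 8.76 over a median of 8.86 to 8.97. The groups did not overlap for Mrpl33 either, which fell by 0.41 ± 0.0706 (limma, adjusted p = 3.49e-05). Mrpl33 also fell at 6 h, by 0.27 ± 0.0729 (limma, adjusted p = 0.00792).

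Mrpl12, the counterpart of the bacterial stalk protein L7/L12, is known in human cells to bind the mitochondrial RNA polymerase as well. At 12 h its untreated PML/RARA arrays read 9.21, 9.24, 9.74 and 9.86, and its RA arrays ran from 8.86 over a median of 8.99 to 9.25. The highest RA array lay above the lowest untreated arrays, and Mrpl12 fell by 0.48 ± 0.113 (limma, adjusted p = 0.00143). Mrpl13 fell by 0.48 ± 0.104 (adjusted p = 0.000707), Mrpl16 by 0.48 ± 0.0935 (adjusted p = 0.000161) and Mrpl11 by 0.48 ± 0.147 (adjusted p = 0.0153) at 12 h in the same limma fit. These 3 genes encode counterparts of bacterial L13, L16 and L11. Mrps30, whose protein sits in the large subunit and has no bacterial counterpart, fell by 0.48 ± 0.144 (limma, adjusted p = 0.0133). The 27 calls at 12 h further held Mrps12, the counterpart of the bacterial decoding centre protein S12, which fell by 0.33 ± 0.113 (limma, adjusted p = 0.0324). The call of Mrps12 was lost without untreated replicate 3 or 4 or RA replicate 5, 6 or 8, that of Mrpl11 without untreated replicate 3, and that of Mrps30 without untreated replicate 2.

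At 6 h the largest fall was that of Mrpl42, a large subunit protein without a bacterial counterpart. Its untreated arrays read 7.74, 7.88, 8.004 and 8.12, and its RA arrays ran from 7.05 over a median of 7.41 to 7.85. The highest RA array lay above the lowest untreated array, and Mrpl42 fell by 0.56 ± 0.168 (limma, adjusted p = 0.0193). The call was lost without untreated replicate 3 or 4. Mrpl41, also found only in mitochondria, had untreated values of 8.44, 8.57, 8.62 and 8.62, and its RA values ran from 7.91 over a median of 8.13 to 8.40. Its groups did not overlap, and Mrpl41 fell by 0.46 ± 0.112 (limma, adjusted p = 0.0039). The other large falls at 6 h were those of Mrps27, an RNA-binding repeat protein, by 0.49 ± 0.122, Mrpl50 by 0.47 ± 0.115, Mrps17 by 0.44 ± 0.114 and Mrpl19 by 0.41 ± 0.103, with limma adjusted p between 0.00354 and 0.00568. Of the members, 7 fell at both times (9.09%) and 33 at either time (42.9%), against 6.12% and 14.1% of all genes. Between the RA effects at 6 h and 12 h, limma called a change in 0 members, 9 had an unadjusted p under 0.05 (11.7%, against 8.14% of all genes), and 0.231% of all genes were called.

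**Figure D2:**
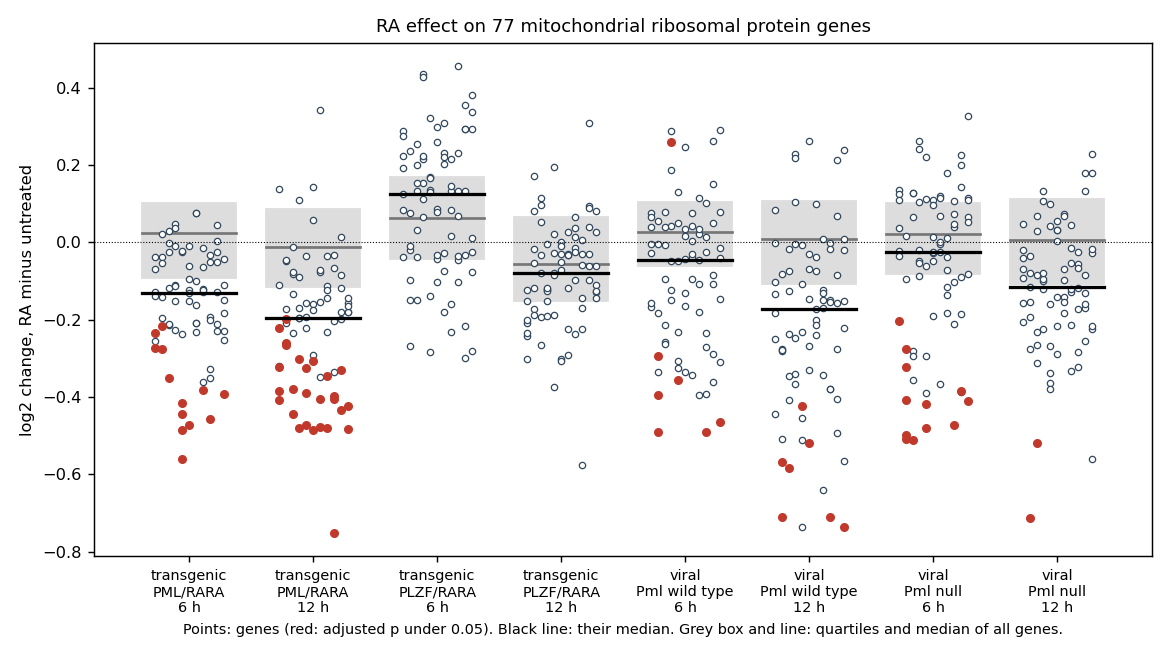
Each point is 1 of the 77 members and gives its log2 change with RA (vertical axis) in each of 8 RA effects; red points are called at an adjusted p under 0.05, black lines are the members' medians, and grey boxes span the quartiles of all 19938 genes with their median. In transgenic PML/RARA the members' median lies at -0.13 at 6 h and -0.19 at 12 h, below the median of all genes.

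In transgenic PLZF/RARA leukaemia, 0 of the 77 members were called by limma with RA at 6 h or at 12 h, with 4 RA and 2 untreated arrays at each time. At an unadjusted p under 0.05 there were 13 members at 6 h (16.9%) and 6 at 12 h (7.79%), against 14.1% and 15.4% of all genes. Over all genes tested, 1.45% were called up and 0.747% down at 6 h, and 2.46% up and 1.57% down at 12 h. The median change of the members was 0.13 at 6 h and -0.08 at 12 h, against 0.06 and -0.05 over all genes. RA replicate 1 at 6 h was bright as a whole. Its array median was 6.81, against 6.59 to 6.64 in the other RA arrays of that group. Its member mean was 9.23, against 8.83 to 9.04. With arrays centred on their median, the median over all genes at 6 h was 0.01. The change was then below 0 in 30 members, against 27 without centring. The largest change at 12 h was that of Mrpl52, whose untreated arrays read 8.81 and 8.91 and whose RA arrays read 8.09, 8.12, 8.46 and 8.47. The groups did not overlap, but the change of -0.58 ± 0.188 was not called (limma, adjusted p = 0.0813). Between 6 h and 12 h, 0 members had a called change and 6 had an unadjusted p under 0.05 (7.79%, against 12% of all genes), with 0.0251% of all genes called.

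The RA effect of PML/RARA minus that of PLZF/RARA, averaged over both times, tests whether the fusions differ. It was called for 2 members, Mrpl19 and Mrpl13, both lower, and for 0 higher, while 4.07% of all genes were lower and 3.35% higher. The difference was below 0 in 72 of 77 members, against 50.3% of all genes, and its median was -0.18, against -0.00 over all genes. The bright PLZF/RARA array named above enters this difference. With arrays centred on their median, the difference was below 0 in 71 members and called for 2. The 95% intervals of single members, not adjusted for their number, lay wholly below 0 in 21 (27.3%) and wholly above 0 in 0, against 11.8% and 7.95% of all genes. In the median these intervals reached 0.26 to either side of the estimate. Not called were the differences of Mrpl42, of -0.59 ± 0.2, and Mrps30, of -0.52, with limma adjusted p of 0.0664 and 0.0723. The erythroid markers had a mean log2 signal of 6.96 to 7.52 in PLZF/RARA arrays, below every PML/RARA array, and 0 of the 6 had a called difference in RA effect. Their part in the member differences was not tested. Without 1 array the count of members ran from 1 to 7; it was 1 without untreated PLZF/RARA replicate 2 at 12 h or 1 at 6 h, and 4 to 7 without PLZF/RARA untreated replicate 1 or RA replicate 4 at 12 h, RA replicate 2 or 4 at 6 h, or untreated PML/RARA replicate 1 at 12 h.

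Mrpl19, the counterpart of bacterial L19 at the contact between the subunits, was called in PML/RARA at both times. In PML/RARA its untreated arrays read 10.13, 10.16, 10.20 and 10.21 at 6 h, and its RA arrays ran from 9.53 over a median of 9.80 to 9.98. In PLZF/RARA the untreated arrays read 9.77 and 9.85 at 6 h and the RA arrays 9.68, 9.87, 10.05 and 10.19. The PML/RARA groups were apart, whereas the PLZF/RARA groups overlapped. At 12 h the PML/RARA arrays read 9.95, 10.01, 10.01 and 10.26 untreated and 9.48 to 9.95 with RA, and the PLZF/RARA arrays 9.86 and 10.29 untreated and 10.08, 10.11, 10.38 and 10.50 with RA. At 12 h 1 RA array of PML/RARA reached the lowest untreated one, and the PLZF/RARA groups overlapped. In PML/RARA, Mrpl19 fell by 0.41 ± 0.103 and 0.39 ± 0.0994, while its changes of 0.14 and 0.19 in PLZF/RARA were not called. The difference in RA effect was -0.57 ± 0.122, with a 95% interval from -0.82 to -0.32 (limma, adjusted p = 0.00283).

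For Mrpl13, the PML/RARA arrays at 12 h read 8.45, 8.67, 8.71 and 8.75 untreated and ran from 7.89 to 8.34 with RA. The PLZF/RARA arrays at 6 h read 8.24 and 8.39 untreated and 8.41, 8.42, 8.76 and 8.91 with RA, and at 12 h 8.47 and 8.85 untreated and 8.35, 8.46, 8.79 and 8.92 with RA. The PML/RARA groups did not overlap at 12 h, the PLZF/RARA RA arrays were all higher at 6 h, and the PLZF/RARA groups overlapped at 12 h. The difference in RA effect of Mrpl13 was -0.48 ± 0.128, with a 95% interval from -0.74 to -0.22 (limma, adjusted p = 0.0165). The call of Mrpl13 was lost without untreated PLZF/RARA replicate 2 at 12 h or 1 at 6 h, and that of Mrpl19 was kept without any single array.

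**Figure D3:**
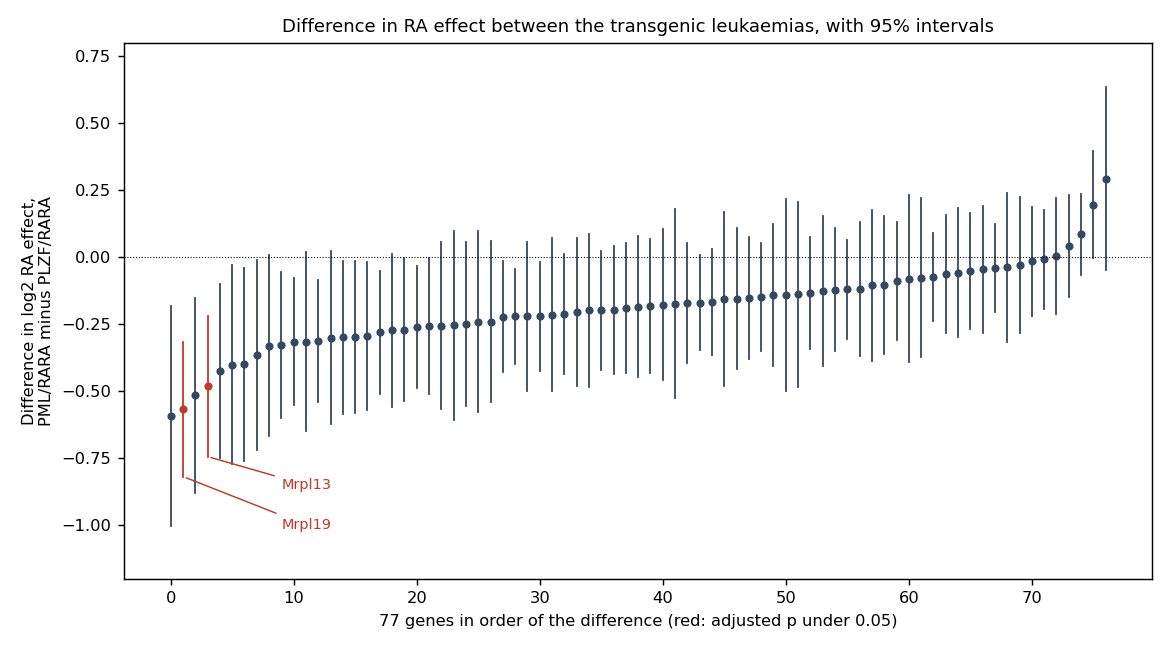
Points give, for each of the 77 members in order, the log2 RA effect of transgenic PML/RARA minus that of PLZF/RARA (vertical axis), and bars its 95% interval without adjustment for the number of genes. Red marks the called Mrpl19 and Mrpl13, and 21 intervals lie wholly below 0 (27.3%), as do 11.8% of those of all genes.

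In the viral leukaemias, too, all but 1 of the called members fell with RA. In the WT background 6 members fell and 1 rose at 6 h, when 4.44% of all genes fell and 5.44% rose, and 7 fell and 0 rose at 12 h, when 3.07% of all genes fell and 3.03% rose. In the pml-/- background 12 members fell and 0 rose at 6 h, when 6.38% of all genes fell and 4.97% rose. At 12 h 2 members fell and 0 rose there, when 1.83% of all genes fell and 4.22% rose. The members' median was -0.04 at 6 h and -0.17 at 12 h in the WT background, and -0.02 and -0.11 in the pml-/- background, against 0.03, 0.01, 0.02 and 0.01 over all genes. Within batch 3 at 6 h 1 member fell in WT and 2 in pml-/-, and within batch 4 4 fell and 1 rose in WT and 2 fell in pml-/-. The count for WT at 6 h was 4 without untreated replicate 1 or 4 and 11 without RA replicate 5. For WT at 12 h it was 0 and 1 without untreated replicate 1 and 2, 4 without RA replicate 2 and 11 without RA replicate 3. For pml-/- at 6 h it was 4, 5 and 6 without untreated replicate 1 or 2 or RA replicate 3, and at 12 h it ran from 0 to 4, with 0 without untreated replicate 2, 1 without untreated replicate 1 or RA replicate 2 or 4, and 4 without RA replicate 1 or 3.

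The mean over the 77 members shows how the viral arrays split. In the WT background at 6 h, the untreated arrays of batch 4 had means of 8.81 and 8.82 and those of batch 3 had 9.06 and 9.13, and the RA arrays ran from 8.60 to 8.85 in batch 4 and from 8.95 to 9.13 in batch 3. At 12 h, all in batch 3, the untreated WT arrays had 9.11 and 9.17 and the RA arrays 8.76, 8.78, 9.08 and 9.11, so that the RA arrays form a low and a high pair. The mean of the mature neutrophil markers was 12.53 and 12.59 in the low pair, 11.63 and 11.65 in the high pair, and 11.71 and 11.80 in the untreated arrays. In the pml-/- background, the RA arrays at 12 h had 8.99, 9.03, 9.13 and 9.17, all below the untreated 9.19 and 9.21. The mature neutrophil markers moved there too: 6 of 11 rose and 0 fell, with a median change of 1.12, and their mean ran from 9.28 to 9.88 in untreated and from 10.20 to 10.86 in RA arrays. In pml-/- at 6 h 1 of the 11 rose and 1 fell, and in WT 1 rose and 1 fell at 6 h and 1 rose at 12 h. Of the 6 erythroid markers 0 were called in the viral RA effects. The part of these cell types in the member changes was not tested.

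Mrps6, the counterpart of bacterial S6, fell in both backgrounds at both times. In WT its untreated arrays read 7.72, 7.88, 8.42 and 8.45 at 6 h, and its RA arrays ran from 7.33 over a median of 7.59 to 7.95. In pml-/- they read 7.997, 8.18, 8.29 and 8.46 untreated and ran from 7.59 over a median of 7.72 to 7.81 with RA. The groups overlapped in WT and did not overlap in pml-/-, and Mrps6 fell by 0.49 ± 0.117 in WT and 0.51 ± 0.117 in pml-/- (limma, adjusted p = 0.00509 and 0.00344). At 12 h the WT arrays read 8.31 and 8.56 untreated and 7.62, 7.62, 7.75 and 7.91 with RA, and the pml-/- arrays 8.29 and 8.80 untreated and 7.55, 7.75, 7.93 and 8.12 with RA. The RA arrays were lower than the untreated ones in both, and Mrps6 fell by 0.71 ± 0.166 in each (limma, adjusted p = 0.00733 and 0.00594). These 12 h calls were lost without untreated replicate 1 in WT and untreated replicate 2 in pml-/-. In transgenic PML/RARA, Mrps6 fell by 0.27 ± 0.0881 at 6 h (limma, adjusted p = 0.0301), and its change of -0.17 at 12 h was not called.

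Mrpl36, the counterpart of the small bacterial protein L36 and the gene whose promoter stretch above holds an E-box, fell in both viral backgrounds at 6 h and in WT at 12 h. In WT its untreated arrays read 10.21, 10.25, 10.31 and 10.46 at 6 h and 10.29 and 10.44 at 12 h. Its RA arrays ran from 9.52 over a median of 9.83 to 10.23 at 6 h and read 9.46, 9.51, 9.69 and 9.85 at 12 h. The highest RA array overlapped the untreated ones at 6 h, and the groups did not overlap at 12 h. Mrpl36 fell by 0.46 ± 0.126 and 0.74 ± 0.178 (limma, adjusted p = 0.0143 and 0.00943), and these calls were lost without untreated replicate 4 at 6 h and without either untreated array at 12 h. In pml-/- it read 10.50, 10.60, 10.73 and 10.73 untreated and 10.07 to 10.47 with RA at 6 h, with no overlap, and fell by 0.41 ± 0.126 (limma, adjusted p = 0.0295), a call lost without untreated replicate 1, 2 or 4 or RA replicate 6. At 12 h the pml-/- arrays read 10.58 and 10.69 untreated and 9.59, 9.87, 10.41 and 10.43 with RA, and the change of -0.56 was not called (limma, adjusted p = 0.0576). Transgenic PML/RARA leukaemia was alike in direction, and Mrpl36 fell by 0.39 ± 0.0981 at 6 h and 0.42 ± 0.095 at 12 h (limma, adjusted p = 0.00441 and 0.000937), and in PLZF/RARA its changes of -0.28 and -0.14 were not called.

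Mrpl19 and Mrpl41 also fell in the viral leukaemias. Mrpl19 read 10.49, 10.51, 10.57 and 10.60 untreated and 10.09 to 10.36 with RA in WT at 6 h, and 10.85, 10.87, 10.89 and 10.99 untreated and 10.34 to 10.73 with RA in pml-/-. In both backgrounds all RA arrays were lower, and Mrpl19 fell by 0.36 ± 0.0774 in WT and 0.42 ± 0.0774 in pml-/- (limma, adjusted p = 0.00213 and 0.000332). At 12 h Mrpl19 fell by 0.42 ± 0.109 in WT (limma, adjusted p = 0.0153), and its change of -0.27 in pml-/- was not called. Mrpl41 read 8.17, 8.26, 8.30 and 8.33 untreated and 7.58 to 8.18 with RA in WT at 6 h, and 7.67, 7.93, 7.997 and 8.01 untreated and 7.23 to 7.61 with RA in pml-/-. Its highest RA array lay just above the lowest untreated one in WT, and the groups did not overlap in pml-/-. Mrpl41 fell by 0.49 ± 0.0978 and 0.47 ± 0.0978 (limma, adjusted p = 0.000844 and 0.00117).

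Mrpl24, the counterpart of bacterial L24, had the largest fall in pml-/- at 6 h. Its untreated arrays read 9.74, 9.83, 9.91 and 10.01 and its RA arrays ran from 9.08 over a median of 9.36 to 9.62. The groups did not overlap, and Mrpl24 fell by 0.51 ± 0.0943 (limma, adjusted p = 3e-04), while its changes of -0.03 and -0.13 in transgenic PML/RARA were not called. Mrpl51 and Mrps17 also fell there, by 0.50 ± 0.146 and 0.48 ± 0.147 (limma, adjusted p = 0.0227 and 0.0291). Both calls were lost without untreated replicate 1 or 2 or RA replicate 7, and that of Mrps17 also without untreated replicate 3 or RA replicate 3. Mrpl38, a protein of the central protuberance of the large subunit, fell at 12 h in both backgrounds. It read 8.78 and 8.92 untreated and 8.01, 8.03, 8.45 and 8.58 with RA in WT, and 9.02 and 9.10 untreated and 8.31, 8.47, 8.63 and 8.76 with RA in pml-/-. All RA arrays were lower in both, and Mrpl38 fell by 0.58 ± 0.14 and 0.52 ± 0.14 (limma, adjusted p = 0.0092 and 0.0205). These calls of Mrpl38 were lost without either untreated array of the same background, and in pml-/- also without RA replicate 2 or 4. The other named falls in WT at 12 h were those of Mrpl52 by 0.71 ± 0.216, Mrps25 by 0.57 ± 0.171 and Mrpl16 by 0.52, with limma adjusted p between 0.0405 and 0.0438, and each was lost without either untreated array and without some RA arrays.

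The single rise in any RA effect was that of Mrps18c, 1 of 3 mammalian counterparts of bacterial S18 whose proteins take different places in the ribosome. In WT at 6 h it read 9.41, 9.61, 9.70 and 9.73 untreated and ran from 9.56 over a median of 9.92 to 10.10 with RA. The groups overlapped, and Mrps18c rose by 0.26 ± 0.0829 (limma, adjusted p = 0.0412), a call that was lost when any 1 of 8 arrays was left out. Its paralogue Mrps18b fell by 0.38 ± 0.108 in transgenic PML/RARA at 6 h (limma, adjusted p = 0.013), a call lost without untreated replicate 3. The third paralogue, Mrps18a, was called in none of the 8 RA effects, with changes between -0.24 and 0.19. Mrps16, the counterpart of bacterial S16, was also called in none, with changes between -0.22 and 0.23.

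The Pml backgrounds were compared by the RA effect in WT minus that in pml-/-, averaged over both times. Limma called 0 of the 77 members, 1 had an unadjusted p under 0.05 (1.3%, against 7.67% of all genes), and 0.381% of all genes were higher and 0.752% lower. The difference was below 0 in 55 of 77 members, against 49.5% of all genes, with a median of -0.06 against 0.00. The 95% intervals of single members reached between 0.149 and 0.515 to either side of the estimate, 0.26 in the median, and the missing calls do not show that the backgrounds act alike. Between 6 h and 12 h, 0 members had a called change in either background, with 0 and 1 at an unadjusted p under 0.05 in WT and pml-/- (0% and 1.3%, against 1.49% and 6.31% of all genes), and 0% and 0.0351% of all genes called.

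Over the 8 RA effects, 37 members fell in at least 1 (48.1%) and 39 were called in none (50.6%), against 19% and 66.1% of all genes. Mrpl36, Mrps6 and Mrpl19 were called in 5 of 8, Mrps15, the counterpart of bacterial S15, in 4, and Mrpl33, Mrpl38, Mrpl41 and Mrps25 in 3. Such recurrence was about as frequent among all genes: 3 members (3.9%) and 3.65% of all genes were called in 5 or more effects, and 8 members (10.4%) and 10.1% of all genes in 3 or more. The 6 h and 12 h effects of a leukaemia have their own untreated arrays, but the viral or transgenic fits share 1 estimate of the spread. In both viral backgrounds at 6 h, 6 members fell (7.79%), against 2.39% of all genes. The change was below 0 in all 8 effects for 15 members (19.5%) and above 0 in all 8 for 0, against 6.44% and 7.36% of all genes. Large and small subunit genes were both among the falls. In transgenic PML/RARA, 8 of 48 large and 5 of 29 small subunit genes fell at 6 h, and 16 and 11 fell at 12 h. Of the 48 genes with a bacterial counterpart 16 fell at 12 h, and of the 29 found only in mitochondria 11 fell. With the ETS-type letters in the promoter window 8 of 25 fell at 12 h, and without them 15 of 43, with a median change of -0.18 in each. With the nuclear receptor core site 6 of 10 fell at 12 h, and without it 17 of 58, with median changes of -0.26 and -0.18. At 6 h 2 of 10 fell with this site and 9 of 58 without it. In viral WT at 12 h the median changes were -0.13 with the site and -0.16 without it. These motif differences were not tested.

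**Figure D4:**
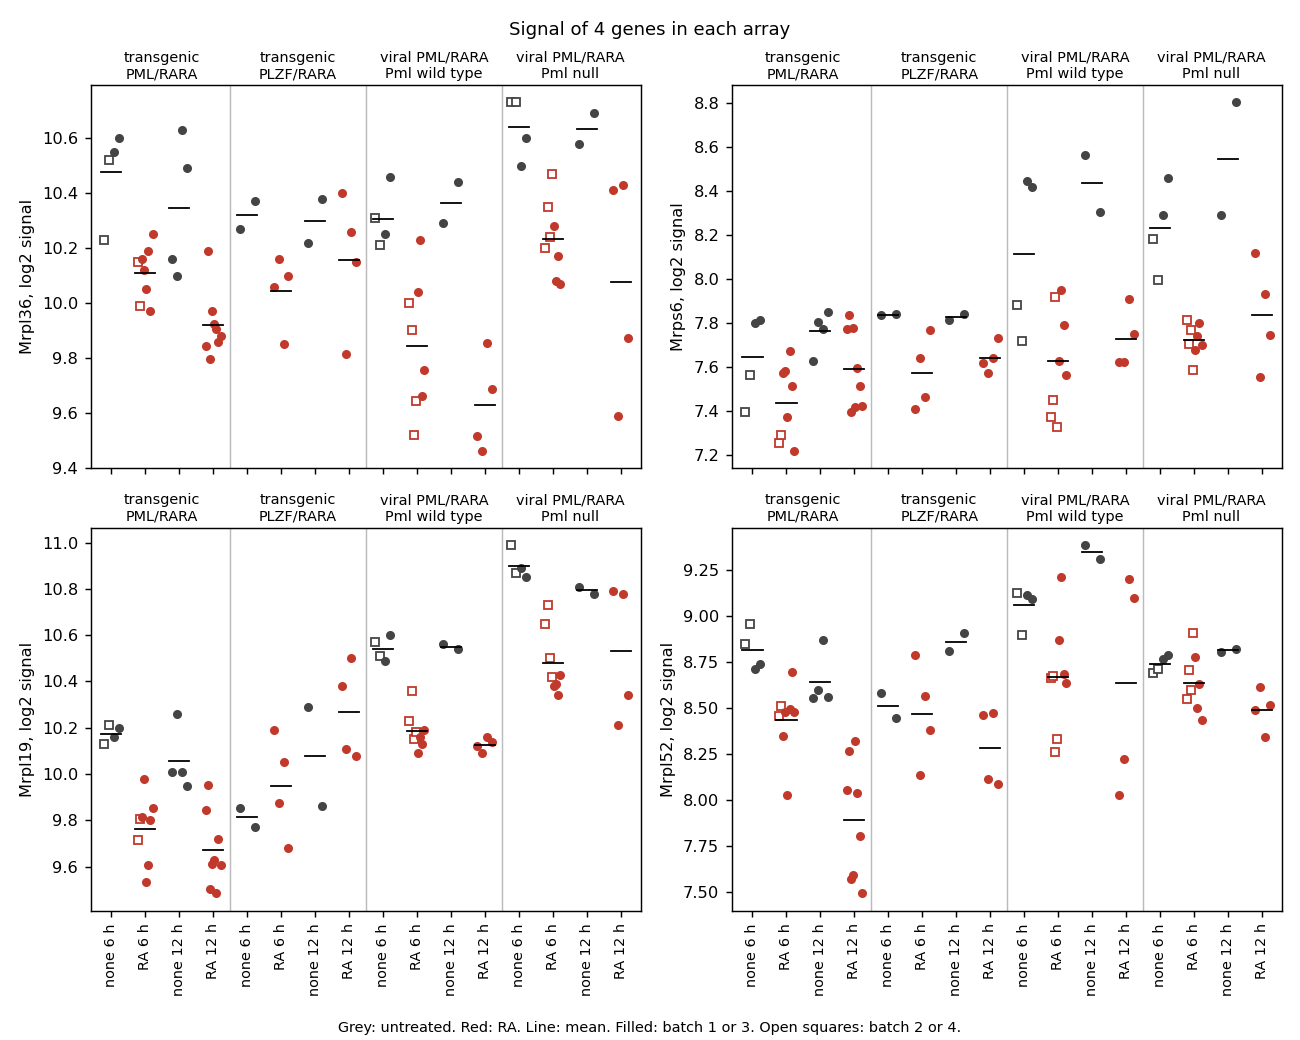
Points are single arrays and give the log2 signal (vertical axes) of Mrpl36, Mrps6, Mrpl19 and Mrpl52 in the 16 groups; grey is untreated, red is RA, lines are group means and open squares are batches 2 and 4. Mrps6 at 12 h reads 8.31 and 8.56 untreated and at most 7.91 with RA in the viral WT background.

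The members were also correlated within groups. After group and batch means were removed, the mean correlation over all pairs of members was 0.32 across the 36 transgenic and 0.33 across the 36 viral arrays, against 0.05 and 0.04 over pairs of all genes. It was 0.28 and 0.34 for the cytosolic ribosomal proteins and 0.19 and 0.31 for nuclear subunits of the respiratory chain. The points of such a correlation share the array, its RNA and its normalization. With the mean of the other members, Mrps5, Mrpl13 and Mrpl24 had the highest correlations in the transgenic arrays, of 0.89, 0.88 and 0.86. In the viral arrays Mrps18a, Mrpl50 and Mrpl16 were highest, at 0.95, 0.92 and 0.92, and Mrpl14, Mrpl51 and Mrpl24 were lowest, at -0.53, -0.30 and -0.26. Mrpl24 thus stood near the top in 1 model and near the bottom in the other.

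Without treatment, the transgenic leukaemias differed in 15 members (19.5%), a smaller share than the 25.3% of all genes. Averaged over both times, 11 were higher in PML/RARA than in PLZF/RARA and 4 were lower, when 13.1% of all genes were higher and 12.2% lower. The members' median of 0.02 was close to that of all genes, 0.01. Mrpl14, the counterpart of bacterial L14, read 9.35, 9.43, 9.44 and 9.49 at 6 h and 9.10, 9.33, 9.34 and 9.51 at 12 h in PML/RARA, and 8.46 and 8.61 at 6 h and 8.77 and 8.83 at 12 h in PLZF/RARA. All PML/RARA arrays were above all PLZF/RARA arrays, by 0.69 ± 0.0905 (limma, adjusted p = 1.89e-07). Mrps28 read 8.53 to 8.83 in PML/RARA and 7.72, 7.78, 8.11 and 8.36 in PLZF/RARA, and was higher by 0.70 ± 0.128 (limma, adjusted p = 5.26e-05). Mrps12 read 7.39 to 8.05 in PML/RARA and 6.92, 7.01, 7.05 and 7.23 in PLZF/RARA, and was higher by 0.65 ± 0.117 (limma, adjusted p = 4.15e-05). The groups did not overlap for either gene. Mrpl20, Mrpl35 and Mrpl41 were higher by 0.49, 0.47 and 0.45. On the other side, Mrps27 was lower in PML/RARA, with a change of -0.44 ± 0.122 (limma, adjusted p = 0.00577) that was lost as a call without untreated PLZF/RARA replicate 1 at 6 h. Mrpl3, the counterpart of bacterial L3, read 9.98 to 10.18 in PML/RARA and 10.33, 10.41, 10.42 and 10.83 in PLZF/RARA, and differed by -0.42 ± 0.0917 (limma, adjusted p = 0.000561). Marker genes differed between the same arrays. Of 6 measured erythroid markers 4 were higher in PML/RARA, with a median of 0.82, of 7 promyelocyte markers 4, of 11 mature neutrophil markers 5, of 9 B cell markers 4, and of 8 stromal and endothelial markers 4, with 0 lower in these lists. Of 8 monocyte markers 5 were higher and 2 lower, of 9 T and NK cell markers 6 and 1, and of 5 megakaryocyte markers 4 and 1, with a median of 0.89. Of 8 eosinophil, basophil and mast cell markers 0 were higher and 3 lower. Their part in the member differences was not tested.

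Without treatment, the viral leukaemias differed in 14 members (18.2%), against 20.8% of all genes. Of these members, 11 were lower and 3 higher in WT than in pml-/-, when 10.9% of all genes were lower and 9.92% higher. The members' median was -0.11, against -0.01 over all genes. The largest difference was that of Mrpl58, a peptidyl-tRNA hydrolase built into the large subunit, known in human cells to release stalled ribosomes. In WT its untreated arrays read 8.78, 8.82, 9.11 and 9.23 at 6 h and 9.21 and 9.26 at 12 h. In pml-/- they read 9.77, 9.81, 10.24 and 10.27 at 6 h and 10.29 and 10.30 at 12 h. All pml-/- arrays were above all WT arrays, and Mrpl58 was lower in WT by 2.07-fold, with a log2 difference of -1.05 ± 0.0763 (limma, adjusted p = 1.12e-12). The RA arrays were apart as well, at 8.95 to 9.40 and 9.21 to 9.45 in WT and 9.84 to 10.25 and 10.02 to 10.10 in pml-/-, and the RA effect on Mrpl58 was called in none of the 8 effects.

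Mrpl34, the counterpart of bacterial L34, read 9.69, 9.93, 10.12 and 10.20 at 6 h and 10.17 and 10.23 at 12 h in WT, and 10.40, 10.48, 10.48 and 10.52 at 6 h and 10.50 and 10.52 at 12 h in pml-/-. The backgrounds did not overlap for Mrpl34 either, which differed by -0.40 ± 0.0889 (limma, adjusted p = 0.000914). Mrps27 differed by -0.41, Mrps35 by -0.37, and Mrpl19 and Mrpl33 by -0.30 each. The 3 members higher in WT were Mrpl52 by 0.43, Mrps5 by 0.31 and Mrpl41 by 0.30 (limma, adjusted p = 0.0445, 0.00494 and 0.025). The call of Mrpl52 was lost when any 1 of 11 arrays was left out, that of Mrpl41 with any 1 of 4, and those of Mrps5 and Mrps35 without untreated WT replicate 1 at 12 h. Within batch 3 alone, 5 members were lower and 1 higher. The count of 14 fell to 7, 6 and 8 without pml-/- replicate 1, WT replicate 1 and WT replicate 2 of the untreated 12 h arrays. Maturation markers differed between these arrays. Of 11 mature neutrophil markers 11 were higher in WT, with a median of 2.29, and their mean ran from 11.48 to 12.08 in untreated WT and from 9.28 to 10.07 in untreated pml-/- arrays. Of 8 monocyte and macrophage markers 6 were higher in WT, with a mean of 9.11 to 9.51 against 8.03 to 8.64. Of 7 promyelocyte markers 3 were higher and 4 lower, of 5 megakaryocyte markers 2 were higher, and of 9 T and NK cell markers 1 was higher and 3 lower. Their part in the member differences was not tested.

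**Figure D5:**
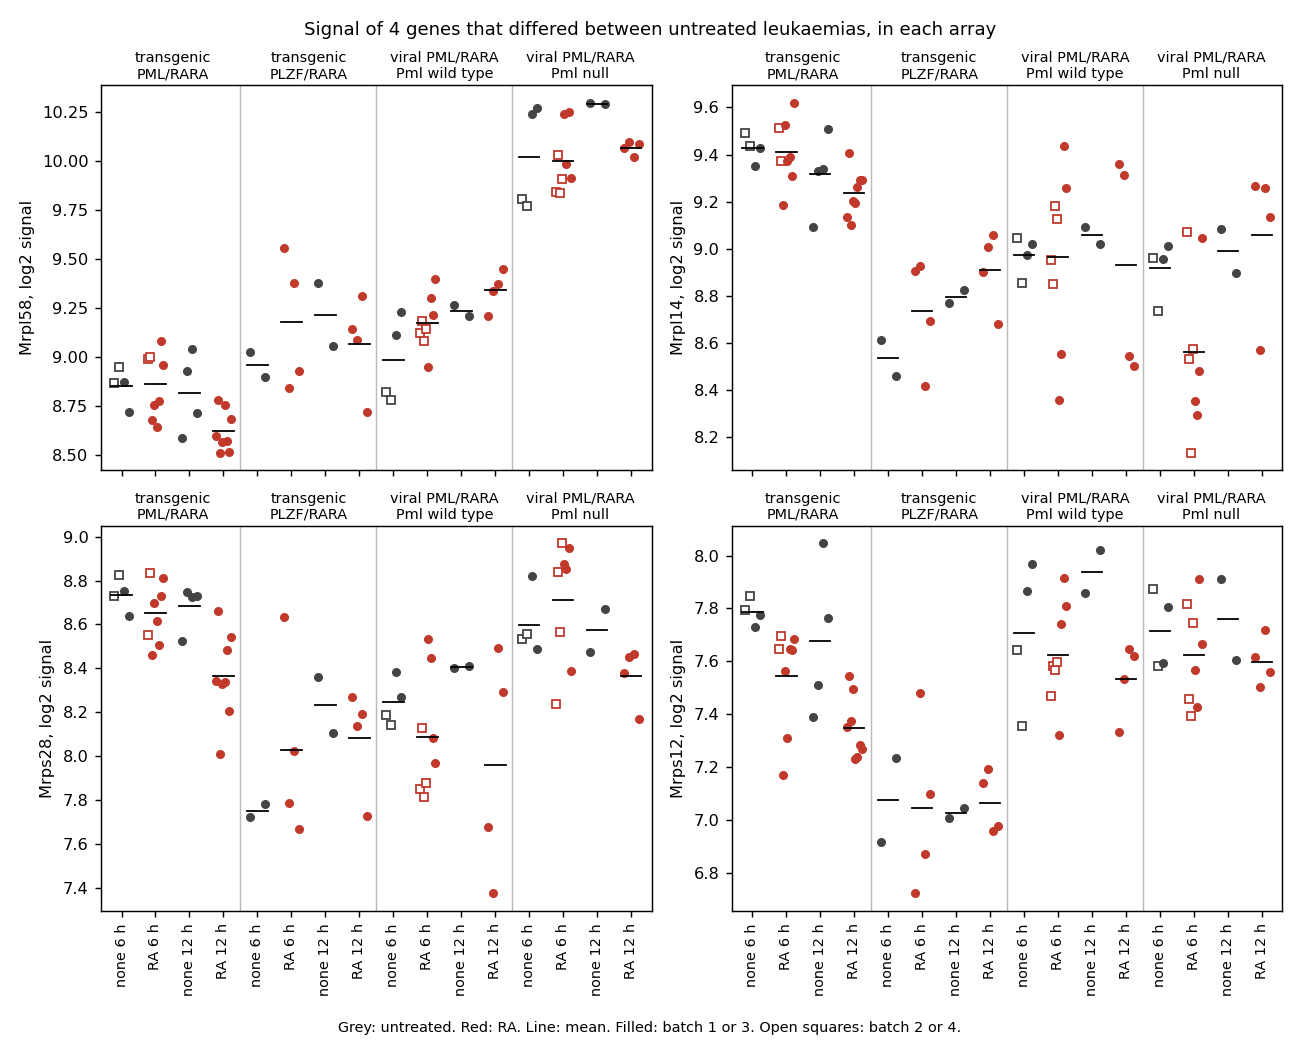
Points are single arrays and give the log2 signal (vertical axes) of Mrpl58, Mrpl14, Mrps28 and Mrps12 in the 16 groups; grey is untreated, red is RA, lines are group means and open squares are batches 2 and 4. For Mrpl58 the untreated pml-/- arrays read 9.77 to 10.30 and the untreated WT arrays 8.78 to 9.26.

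The other genes of mitochondrial translation were followed as lists. Of 19 mitochondrial aminoacyl-tRNA synthetases, which load the tRNAs, 13 fell at 6 h and 15 at 12 h in transgenic PML/RARA and 0 rose, with medians of -0.29 and -0.35. Among them Yars2, for tyrosine, fell by 0.53 at 6 h (limma, adjusted p = 0.000388), and Nars2, for asparagine, fell by 0.64 at 12 h (limma, adjusted p = 3.53e-06). In PLZF/RARA 0 of the 19 were called, in WT 7 and 8 fell at 6 h and 12 h, and in pml-/- 6 and 1 fell. The difference between the fusions was called for 5, all lower in PML/RARA. Of 26 assembly and ribosomal RNA factors, 6 fell at 6 h, and 7 fell and 1 rose at 12 h, in transgenic PML/RARA. Noa1, a GTPase needed for assembly, fell by 0.70 at 6 h (limma, adjusted p = 1.17e-07). Of 13 translation factors 3 and 5 fell, and Tufm, the elongation factor that delivers tRNAs, fell by 0.44 at 6 h (limma, adjusted p = 0.00021). The background shares of all genes given above for each comparison hold for these lists too.

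The cytosolic ribosome and the respiratory chain, which the mitochondrial ribosome helps to build, were followed in the same arrays. Of 53 cytosolic ribosomal proteins 1 fell at 6 h, and 1 fell and 1 rose at 12 h, in transgenic PML/RARA. In viral WT at 12 h their mean log2 signal was 11.83 and 11.85 in the untreated arrays. It was 11.65 and 11.66 in the RA arrays low in the member mean, and 11.80 and 11.82 in the high pair. In pml-/- at 12 h it ran from 11.93 to 11.96 untreated and from 11.88 to 11.95 with RA. Without treatment 22 of the 53 were lower in PML/RARA than in PLZF/RARA, with a median of -0.17, and 20 were lower and 1 higher in WT than in pml-/-. Of 75 nuclear subunits of the respiratory chain 5 fell and 1 rose at 6 h, and 6 fell and 2 rose at 12 h, in transgenic PML/RARA.

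Of 18 regulators of mitochondrial gene expression, 6 fell and 1 rose at 6 h and 7 fell and 1 rose at 12 h in transgenic PML/RARA. Ppargc1b, a coactivator of nuclear genes for mitochondria, fell by 0.80 and 0.84 (limma, adjusted p = 4.73e-06 and 6.72e-07). Myc fell by 0.66 ± 0.101 at 6 h and 0.49 at 12 h (limma, adjusted p = 1.14e-05 and 0.000256). Its changes of -0.39 and 0.08 in PLZF/RARA were not called, and its RA effect differed between the fusions by -0.42 ± 0.121 (limma, adjusted p = 0.0284). In WT, Myc fell by 0.92 at 6 h and 1.41 at 12 h (limma, adjusted p = 0.0214 and 0.0176). In pml-/- it fell by 0.97 at 6 h (limma, adjusted p = 0.0133), and its change of -0.32 at 12 h was not called. With the E-box letters in their window, 2 of 5 members fell at 12 h in transgenic PML/RARA, and without them 21 of 63, with median changes of -0.15 and -0.18. At 6 h 1 of 5 and 10 of 63 fell, with a median change of -0.13 in each. A link between Myc and the members was not tested.

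For 8 members a second probe set was on the array, and some pairs differed in size or sign. The probe set used for Mrpl41 changed by -0.46 and the other by -0.24 in transgenic PML/RARA at 6 h. In viral WT at 6 h these 2 probe sets changed by -0.49 and -0.21, and in pml-/- at 6 h by -0.47 and -0.32. For Mrps5 at 12 h the changes were -0.31 and -0.40. Mrpl47 and Mrpl27 were picked out here after their values were seen. The probe set used for Mrpl47 changed by -0.07 ± 0.113 and the other by -0.40 ± 0.126 in transgenic PML/RARA at 12 h, and in pml-/- at 12 h they changed by 0.07 and -0.39. For Mrpl27 in transgenic PML/RARA the changes were 0.05 and -0.13 at 6 h and -0.12 and 0.06 at 12 h.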

How the data were processed

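Total RNA of 72 bone marrow samples was measured on 1-colour arrays. The deposited values are log2 signals per probe set, made by the authors with RMA and affy, per the submitters' processing notes. Their versions, the background correction and any batch correction do not appear in the labels or headers read for this work. Of 35556 probe sets, 21789 had 1 gene symbol in the platform annotation, 1621 had several and 12146 were not listed. The brightest probe set over all arrays stood for each of 19938 genes, and no gene was left out for low signal. Mean and median signals were computed from the log2 values as deposited.

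The files were read with the package data.table, version 1.17.8. Groups and batches came from the labels, and replicate numbers follow accession order and pair no samples. In R 4.3.3, limma 3.58.1 was fitted to the 36 arrays of each model with 1 coefficient per group and a batch term, followed by eBayes. The residual degrees of freedom were 27. Tests were two-sided, and p-values were adjusted by Benjamini-Hochberg over all genes. There were 16 contrasts: 8 RA effects, 2 differences in RA effect, 2 untreated differences and 4 changes from 6 h to 12 h. The fit was tested on simulated data with known changes and independent noise for each gene. The members are correlated, so that test does not cover their counts.

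The members and lists were chosen with earlier results of these data known. Members named are, per contrast, up to 6 rises and 6 falls, taken by size from the called members, plus Mrpl12, Mrps12, Mrps18a, Mrps18b, Mrps18c, Mrpl41, Mrps30, Mrpl36 and Mrps16. Of the other lists, up to 3 called genes with the largest moderated statistic per contrast and Myc were eligible. Promoter windows came from RefSeq on GRCm38.p6 and were matched by symbol. Alternatives changed the choice of probe set, the normalization, the batch term, the arrays used, the filter on low signal, the eBayes settings, the array weights and the untreated arrays pooled.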

Additional observations from a re-analysis of the deposited data

Results flagged for a closer look

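Among 144 checks of groups of 4 to 8 arrays, over the member mean and 11 genes shown by array, 8 had 1 array far from the others, where chance gives about 1 in 20 (5%). In transgenic PML/RARA at 6 h, RA replicate 5 had the lowest mean over the 77 members, 8.765, with the next array at 8.9, and also the lowest Mrpl13, 8.226, with the next at 8.482. The same array had the highest erythroid, B cell and mature neutrophil marker means of its group, 10.19, 8.33 and 12.01. Its monocyte and promyelocyte marker means, 8.555 and 12.02, lay within the range of the group. The part of these cell types was not tested. Mrpl36 read 10.19 in RA replicate 2 of transgenic PML/RARA at 12 h, with the next at 9.969. Mrpl52 read 8.867 in untreated replicate 3 of transgenic PML/RARA at 12 h, above the next at 8.595, and 8.897 in untreated replicate 2 of viral WT at 6 h, below the next at 9.092. Mrpl38 read 8.981 in RA replicate 1 of PLZF/RARA at 6 h, above 8.769, and 8.242 in RA replicate 3 of viral pml-/- at 6 h, below 8.541. That PLZF/RARA array was bright as a whole, with an array median of 6.81 against 6.59 to 6.64 in the others of its group. Mrpl33 read 8.786 in RA replicate 1 of viral WT at 12 h, above 8.696.

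The RA effect differed between the transgenic fusions for Mrpl19, by -0.567, and for Mrpl13, by -0.481, in the test of the difference itself by limma.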

How the results depend on the processing

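Under each alternative, the members' median change moved by less than the standard deviation (SD) of the member mean between arrays. This held in every contrast in which it was run, which was 3 for batch 2 or 4 alone, 8 for pooled untreated arrays and 16 for the others. This rule could not show the loss of a small change. In viral WT at 6 h the SD was 0.16 in untreated and 0.18 in RA arrays, against a median change of -0.04. No named change reversed. With the mean of all probe sets of a gene, with genes of low mean signal left out, or with trend and robust eBayes, every count of called members stayed within 1.5 times its value. Quantile normalization gave 11 called members in viral WT at 6 h and 1 in PLZF/RARA at 12 h. Centring arrays on their median gave 9 in the untreated viral difference. Without a batch term, 4 were called in viral WT at 12 h, 1 in pml-/- at 12 h and 7 in the untreated viral difference. With batch 1 or 3 alone, 5 were called in transgenic PML/RARA at 6 h, 1 in viral WT and 2 in pml-/- at 6 h, and 6 in the untreated viral difference, and with batch 4 alone 2 in pml-/- at 6 h. Array weights gave 28 in transgenic PML/RARA at 6 h, 18 and 21 in viral WT at 6 h and 12 h, 23 in pml-/- at 6 h, 24 and 28 in the untreated transgenic and viral differences, 1 in the difference in RA effect between backgrounds and 3 in the change over time in transgenic PML/RARA. Pooling the untreated arrays of both times gave 2 in PLZF/RARA at 12 h, 18 and 19 in viral WT at 6 h and 12 h, and 6 in pml-/- at 12 h. The cause of these shifts was not tested.

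With 1 array left out at a time, the count ran from 7 to 14 in transgenic PML/RARA at 6 h and from 15 to 33 at 12 h, from 0 to 1 in PLZF/RARA at 6 h, from 4 to 11 and 0 to 11 in viral WT at 6 h and 12 h, and from 4 to 16 and 0 to 4 in pml-/-. It ran from 1 to 7 in the difference between the fusions, from 6 to 14 in the untreated viral difference and from 0 to 1 in the change over time in PLZF/RARA. Of 60 named calls, 31 were kept without every single array in turn and 29 were lost without at least 1. The threshold was missed by 21 of the 60 within batch 1 or 3 alone, by 11 of 22 within batch 2 or 4 alone and by 11 without a batch term. No paired analysis was possible because the replicate numbers only follow accession order. The groups of 2 untreated arrays limit the 12 h viral and the PLZF/RARA comparisons.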
